A study of Macaca fascicularis with 6 samples.

Results

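Lymphocyte lineage transcription factors are DNA-binding proteins that set which effector programme a T cell, a natural killer (NK) cell or an innate lymphoid cell adopts. 7 of them were examined here, TBX21, EOMES, GATA3, FOXP3, BCL6, TCF7 and LEF1, chosen by name from the 28623 genes that the count tables list, and each of the 7 symbols matched 1 gene identifier. TBX21 (T-bet) drives type 1 immunity and interferon gamma production, and its paralogue EOMES shares with it the control of cytotoxic genes and of NK cell maturation. GATA3 is the master regulator of type 2 helper T cells, the cells most often named in allergic asthma, and FOXP3 is that of regulatory T cells. BCL6 is a repressor that directs follicular helper T cells and germinal centre B cells, and the paralogues TCF7 (TCF-1) and LEF1 keep T cells in naive and memory states downstream of WNT signalling.

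The data were lung cells of 6 male cynomolgus monkeys of 3 to 5 years, each profiled in 1 droplet library that counts the 3′ ends of transcripts as unique molecular identifiers (UMIs). The 3 monkeys of the asthma group (replicates 8, 10 and 11) had been sensitized under the skin with antigen of the roundworm Ascaris suum in adjuvant and then challenged with the antigen through the nose, and the 3 controls (replicates 1, 2 and 3) had received saline in its place. Total UMIs ran from 29014556 in asthma replicate 11 to 41489879 in asthma replicate 10, and 24235 of 35133 barcodes passed the filters on genes, UMIs and mitochondrial share. Pairs of libraries shared few barcodes, 75 in all. Every p-value below measures the spread between single libraries of single animals.

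Cells were clustered without the 7 genes, so that their levels took no part in defining the groups, and 10136 cells formed the T and NK-like compartment. They divided into cytotoxic CD8 T-like (3608 cells), NK-like (2332), CD4 T-like (1437), GZMK CD8 T-like (723), proliferating (557) and regulatory T-like cells (71), and into 4 clusters that met no name and are called by their leading genes. Those were led by JAML and BLK (512 cells), by IGFBP2 and SOX4 (424), by HEXIM1 and COL11A1 (363) and by ITM2C and ZNF683 (109). In the HEXIM1 and COL11A1 cluster the small nuclear RNAs RNU6ATAC, U2 and 7SK stood ahead of these genes, and it is called by the first protein-coding ones. Levels are given as CPM, the UMIs of a gene scaled by the total UMIs of a library and class, and the mean ± SD is over the libraries with at least 10 cells of that class. Control values are listed in the order of replicates 1, 2 and 3, and asthma values in the order of 8, 10 and 11. Libraries stood apart within this compartment. T and NK-like cells made up 26.3% of the cells in asthma replicate 11 and 42.0% to 47.6% in the other 5 libraries. In asthma replicate 11, 48.4% of them were CD4 T-like, against 6.6% to 18.7% elsewhere. Of these 513 cells 480 lay in 1 cluster, in which the CD8 T cell marker CD8A was at 192 CPM, above CD4 at 124 CPM. The CD4 T-like values of that library below rest mostly on that cluster. Cytotoxic CD8 T-like cells ranged from 6.2% in asthma replicate 11 and 6.5% in control replicate 1 to 67.4% in asthma replicate 8. No difference in a subtype share between the groups passed a two-sided exact permutation test, whose smallest p with 3 against 3 is 0.1. In the exact permutation test proliferating cells reached that smallest p, at 8.72% ± 6.77 in control and 1.77% ± 0.62 in asthma (n = 3 each, p = 0.1), and the p adjusted over the 10 subtypes was 0.8. The difference in their share was −6.95 percentage points and ran from −9.50 to −3.10 with a library left out.

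**Figure D1:**
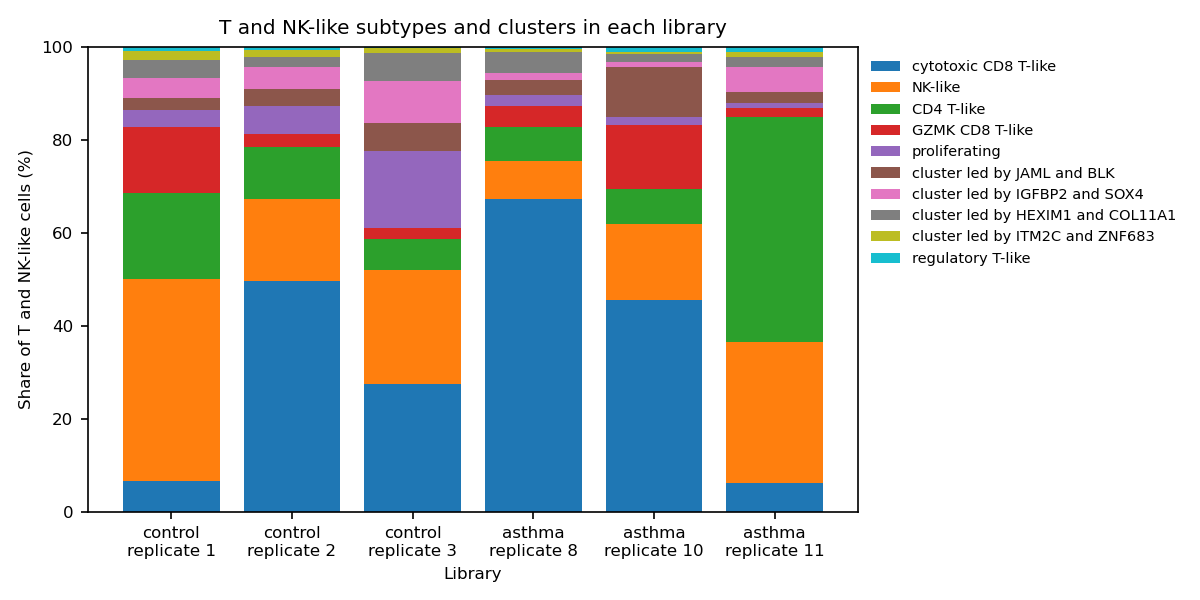
Stacked bars give the share of T and NK-like cells (%, vertical axis) in each of the 10 subtypes and clusters, with 1 bar per library. The CD4 T-like share is 48.4% in asthma replicate 11, mostly from 1 cluster with CD8A above CD4. The cytotoxic CD8 T-like share is 67.4% in asthma replicate 8, and the libraries of 1 group differ widely.

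The T and NK-like compartment held 82.4% of the TBX21 UMIs of all retained cells, 90.7% of EOMES, 83.9% of GATA3, 84.6% of TCF7, 72.9% of LEF1 and 61.2% of FOXP3. BCL6 was the exception, with 13.3% of its UMIs there. Cells set aside because they carried markers of a second class held between 6.43% (EOMES) and 9.85% (BCL6) of the UMIs of a member.

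**Figure D2:**
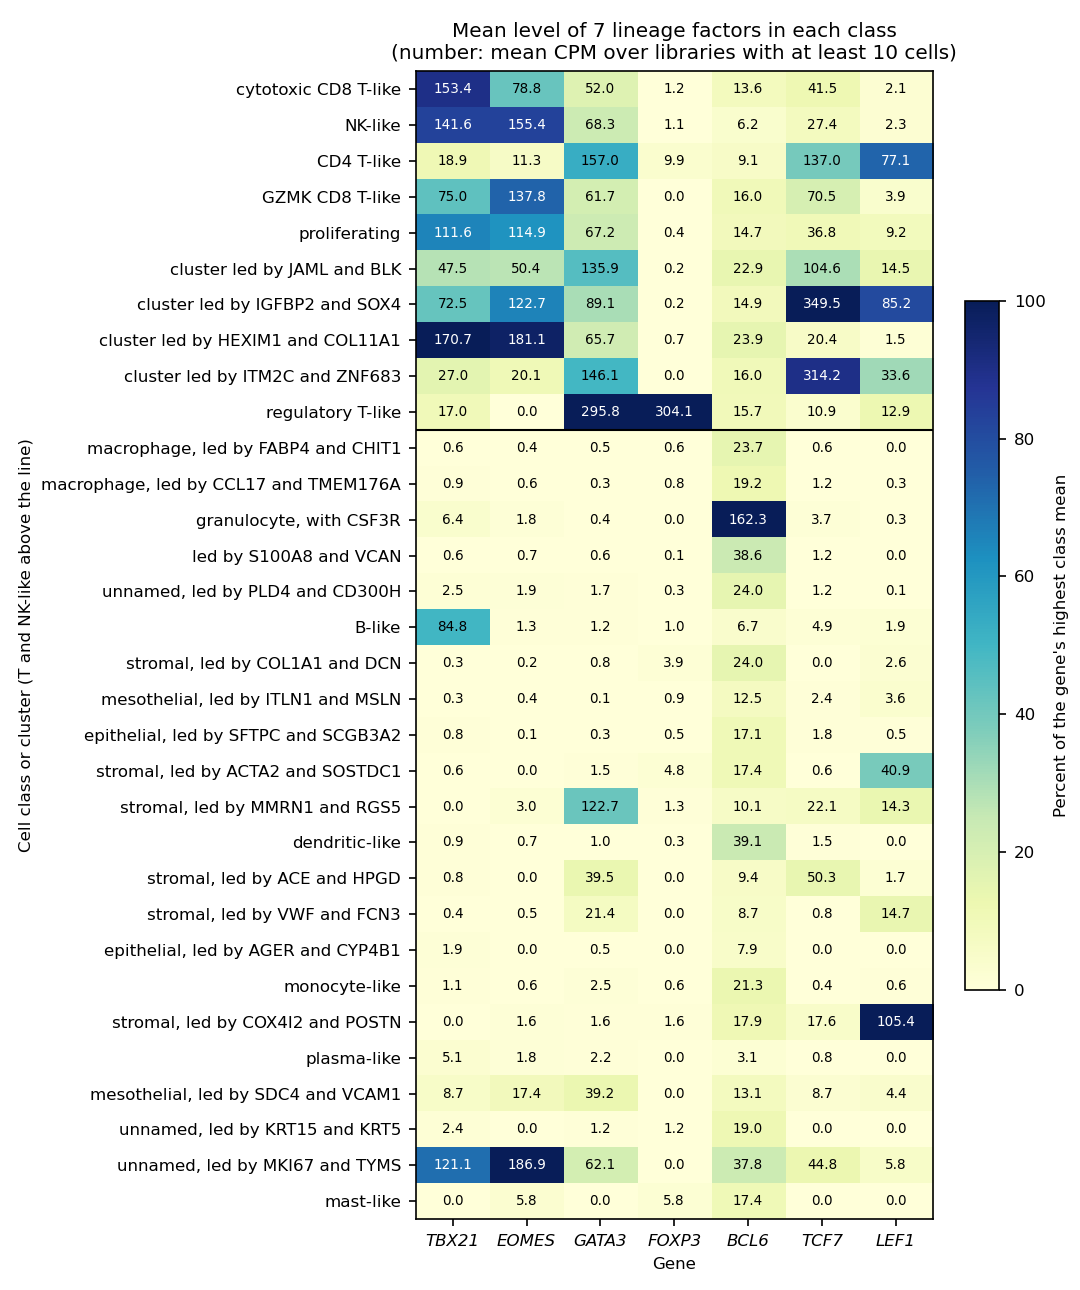
Each cell of the grid prints the mean CPM of a gene (columns) in a class or cluster (rows) over the libraries with at least 10 cells, and its colour gives that mean as a percent of the gene's highest class. The highest TBX21 means are in the HEXIM1 and COL11A1 cluster and in cytotoxic CD8 T-like and NK-like cells, followed by the cells led by MKI67 and TYMS, proliferating cells and B-like cells. FOXP3 is highest in regulatory T-like cells and BCL6 in the granulocyte cluster with CSF3R among its leading genes.

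TBX21 and EOMES, the type 1 and cytotoxic pair, had their highest means of the named T and NK-like subtypes in killer cells. TBX21 was at 153 ± 26.4 CPM in cytotoxic CD8 T-like cells and 142 ± 20.8 in NK-like cells (SD, n = 6 each), and with a finer clustering of the compartment (resolution 2.0) NK-like cells had the highest mean. In cytotoxic CD8 T-like cells it was at 142, 164 and 145 CPM in the controls and at 188, 169 and 112 in the asthma libraries. The groups overlapped, and the lowest value came from the 66 such cells of asthma replicate 11. GZMK CD8 T-like cells, a CD8 population marked by granzyme K, had a mean TBX21 level of 75.0 ± 37.9 CPM, and CD4 T-like cells had 18.9 ± 7.36. EOMES was at 155 ± 53.3 CPM in NK-like cells and 138 ± 60.8 in GZMK CD8 T-like cells, and at 78.8 ± 39.2 in cytotoxic CD8 T-like cells. It was higher in NK-like than in cytotoxic CD8 T-like cells of the same library in 6 of 6 libraries. Within the compartment the highest mean of both genes was in the cluster led by HEXIM1 and COL11A1, at 171 CPM for TBX21 and 181 for EOMES. That cluster, led by small nuclear RNAs, had a low median of 1783 UMIs per cell and was left unnamed, although its summed level of the T and NK marker list was 105% of the compartment's. Outside the compartment, 79 cells led by MKI67 and TYMS, genes of dividing cells, were also unnamed and had means of 121 CPM for TBX21 and 187 for EOMES over the 2 libraries that held at least 10 of its cells. They are the remainder of a cluster from which plasma, mast and B-like cells and mixed cells were separated, and 28 of them had high doublet scores. All 8 T and NK markers were detected in them, at a summed level of 111% of the compartment's.

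The UMI balance of the pair was given as EOMES UMIs in percent of EOMES plus TBX21 UMIs, which is compared here between cell types and libraries and not as a ratio of true levels, since the 2 transcripts may be captured differently. In NK-like cells EOMES made up 56.9%, 56.9% and 63.9% in the controls and 46.5%, 48.7% and 33.3% in the asthma libraries, with no overlap between the groups. These cells lay in different clusters in different libraries. In the cluster that most libraries shared, the 48 cells of control replicate 1 had EOMES at 102 and TBX21 at 172 CPM. Asthma replicate 8 had 150 and 171 CPM there, so the balance overlapped between the groups within that cluster. In cytotoxic CD8 T-like cells the share was 49.1%, 24.9% and 43.9% in the controls and 27.2%, 15.8% and 37.0% in the asthma libraries, and here the groups overlapped. The last value, and the 27.3% in GZMK CD8 T-like cells of asthma replicate 11, rest on 27 and 11 UMIs of the pair. In GZMK CD8 T-like cells the share was 56.4%, 70.5% and 81.4% in the controls and 73.2% and 74.8% in asthma replicates 8 and 10, above that of NK-like cells in 4 of 6 libraries. In single T and NK-like cells, 27.6% of the 3177 with a TBX21 UMI also had an EOMES UMI, against 23.5% of all such cells. Within subtypes the 2 shares were 16.0% and 16.4% in cytotoxic CD8 T-like, 41.9% and 40.4% in NK-like and 25.4% and 27.7% in GZMK CD8 T-like cells. In the other subtypes and clusters with more than 10 cells that had a TBX21 UMI they were 13.0% and 4.31% in CD4 T-like cells, 47.3% and 41.7% in proliferating cells, 41.6% and 29.2% in the HEXIM1 and COL11A1 cluster, 22.2% and 18.9% in the JAML and BLK cluster, 35.7% and 34.7% in the IGFBP2 and SOX4 cluster and 18.2% and 7.34% in the ITM2C and ZNF683 cluster, the last from 11 cells.

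**Figure D3:**
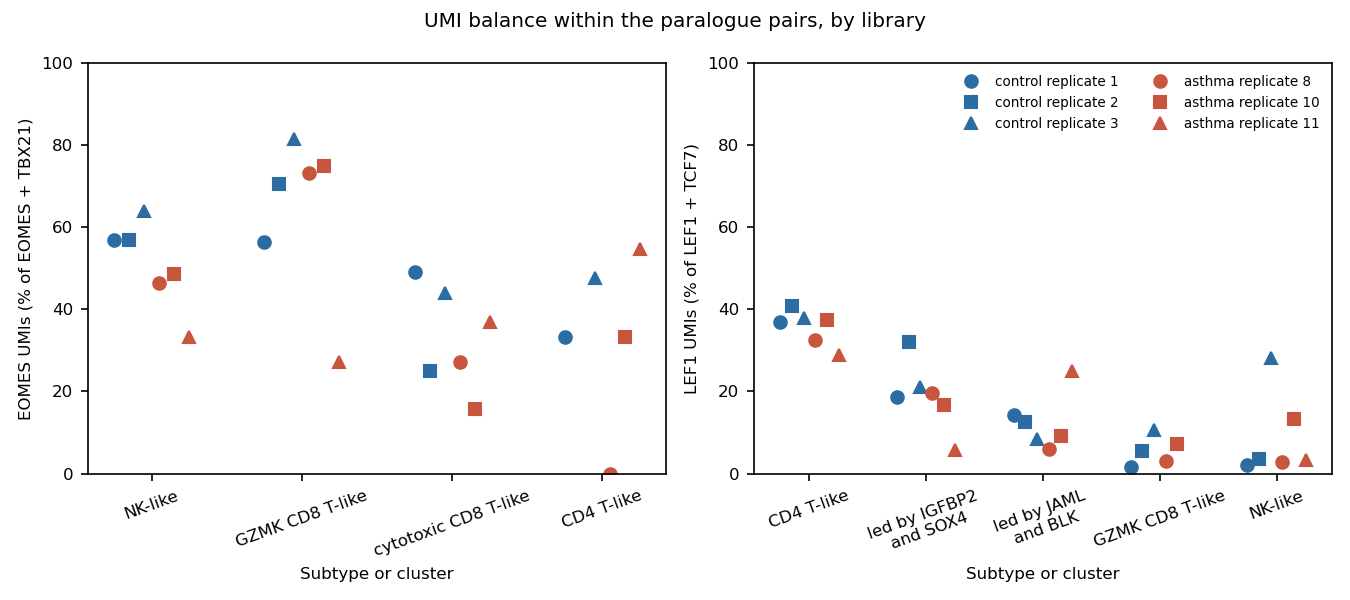
The left panel gives EOMES UMIs in percent of EOMES plus TBX21, and the right panel LEF1 in percent of LEF1 plus TCF7, with 1 point per library (blue, control; red, asthma) in each subtype or cluster on the horizontal axis. In NK-like cells the 3 asthma points (33.3% to 48.7%) lie under the 3 control points (56.9% to 63.9%), and in CD4 T-like cells the LEF1 share lies between 28.8% and 40.9%.

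TBX21 was also found outside the T and NK-like compartment, in B-like cells. It was at 74.2, 75.1 and 104 CPM in the controls and at 82.9, 127 and 45.5 in the asthma libraries, the last from 6 UMIs in 30 cells. The groups overlapped, and each of the 6 values lay above the highest value of the FABP4 and CHIT1 macrophage cluster, a type that should lack the gene, at 1.01 CPM. After each cell was thinned to 1000 UMIs, 9.41% of B-like cells and 0.0704% of those macrophages had a TBX21 UMI (31.6% and 1.40% unthinned, at median depths of 4203.5 and 24258 UMIs). EOMES, the paralogue, stayed at a mean of 1.33 CPM in B-like cells. Of the 8 T and NK markers, 7 were detected in the B-like cells, CD247 was at 0, CD3E was at 1.69 CPM, and the most abundant was CD3G at 72.6 CPM. Their sum in B-like cells ran from 94.8 to 321 CPM over the libraries and was 2.63% of the sum in the T and NK-like compartment. Against the summed T and NK-like cells, TBX21 was at 78.1% of their level in the B-like cells, EOMES at 1.73% and CD3E at 0.462%. CD3E was the lowest of the CD3 genes in the B-like cells. CD3G was at 72.6 CPM in them and at 608 CPM in the summed T and NK-like cells, and CD3D at 56.7 and 1055 CPM.

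GATA3, the type 2 regulator, had its highest mean in regulatory T-like cells. Its mean was 296 ± 89.2 CPM in regulatory T-like cells (n = 4) and 157 ± 40.9 in CD4 T-like cells (n = 6), then 146 in the cluster led by ITM2C and ZNF683 and 136 in the one led by JAML and BLK. In summed cells the ITM2C and ZNF683 cluster, with CD4 at 0.0 CPM, had GATA3 at 171 CPM, above CD4 T-like cells at 155. GATA3 was higher in regulatory than in CD4 T-like cells in 4 of 4 libraries that held 10 cells of each. In CD4 T-like cells GATA3 was at 216, 120.4 and 195 CPM in the controls and at 159, 132 and 119 in the asthma libraries. The groups overlapped there, with control replicate 2 the lowest control. The lowest mean of the T and NK-like subtypes was that of cytotoxic CD8 T-like cells, at 52.0 ± 15.1 CPM, so GATA3 was present in every subtype rather than in the CD4 cells alone.

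Outside lymphocytes, GATA3 was found in stromal clusters that carry the endothelial markers PECAM1 and CDH5, and GATA3 is a known regulator of vascular development. In the cluster led by MMRN1 and RGS5 it was at 185, 85.1 and 97.6 CPM in the asthma libraries, while control replicates 1 and 3 together gave 7 cells of this cluster and control replicate 2 gave none, so the groups cannot be compared there. PECAM1 was at 2548 CPM and CDH5 at 1015 CPM in that cluster. The cluster led by ACE and HPGD had GATA3 at 67.4, 37.7 and 52.8 CPM in the same 3 asthma libraries and at 0 UMIs in the 13 cells of control replicate 2, and that led by VWF and FCN3 had a mean of 21.4 CPM over 6 libraries. All 8 T and NK markers were detected in the MMRN1 and RGS5 cluster, but CD3E was at 0.962 CPM and 295 of their summed 326 CPM came from IL7R, the interleukin-7 receptor. The sum was 231 to 384 CPM in the 5 libraries with cells of the cluster.

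FOXP3, the regulatory T cell factor, was rare and had its highest level in regulatory T-like cells, which held 31.0% of its UMIs. It gave 255 UMIs in 185 cells of all 24235, of which the 71 regulatory T-like cells, named without using FOXP3 from markers such as IL2RA and CTLA4, held 79 UMIs in 41 cells. Its level there was 201, 266, 459 and 290.0 CPM in control replicates 1 and 2 and asthma replicates 10 and 11, the libraries with at least 10 such cells. CD4 T-like cells had 2.23 to 23.2 CPM, and every other T and NK-like subtype had a mean of at most 1.16 CPM. Outside the compartment, the summed cells of the stromal cluster led by COL1A1 and DCN had FOXP3 at 2.84 CPM, from 11 UMIs. Those of the cluster led by ACTA2 and SOSTDC1 had 2.93 CPM, from 4 UMIs. CD3E was at 1.29 and 2.93 CPM in these clusters, in the same order. After thinning to 1000 UMIs, 24.5% of regulatory T-like cells had a FOXP3 UMI, 0.645% of CD4 T-like cells and 0.0522% of the FABP4 and CHIT1 macrophages. Those macrophages held 25 FOXP3 UMIs at a median depth of 24258 UMIs. Their summed FOXP3 level was 14.9% of that of the T and NK-like cells, and their CD3E level 0.309%. The macrophage cluster led by CCL17 and TMEM176A held 19 FOXP3 UMIs. The source of the macrophage UMIs was not tested. Of the 41 regulatory T-like cells with FOXP3, 23 also had a GATA3 UMI, and 57.5% of the regulatory T-like cells with GATA3 had FOXP3 against 57.7% of all 71. None of the 71 cells had an EOMES UMI, which allows a share of cells with an EOMES UMI of up to 4.23% (3 counts, counting error only) and sets no limit on cells that express the gene without a captured UMI.

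BCL6, the follicular and germinal centre factor, had its highest means in myeloid cells in these lungs and was also measured in structural cells. In summed cells it was at 25.1 CPM in the FABP4 and CHIT1 macrophages and 18.7 in those led by CCL17 and TMEM176A. The stromal clusters led by COX4I2 and POSTN, COL1A1 and DCN, and ACTA2 and SOSTDC1 had 30.2, 28.2 and 27.1 CPM. The other stromal clusters had 6.73 to 10.9 CPM. The granulocyte cluster with CSF3R, the gene of the G-CSF receptor, among its leading genes had BCL6 at 97.4, 182 and 152 CPM in the controls and at 217, 151 and 175 in the asthma libraries. The groups overlapped. The next highest means were 39.1 CPM in dendritic-like cells, 38.6 in the cluster led by S100A8 and VCAN and 37.8 in the unnamed cells led by MKI67 and TYMS, whereas B-like cells had 6.69 ± 3.803 CPM and CD4 T-like cells 9.11 ± 6.32. The cluster led by S100A8 and VCAN carried 5 granulocyte markers, but VCAN is a monocyte marker, and it is called by its genes. Among T and NK-like subtypes the means lay between 6.23 CPM in NK-like cells and 23.9 CPM in the cluster led by HEXIM1 and COL11A1, and neighbours in this order differed by at most 6.74 CPM. After thinning, 14.7% of the granulocyte cells with at least 1000 UMIs had a BCL6 UMI, and 802 of the 1633 cells were too shallow to enter. T and NK markers were near 0 in this cluster, with CD247 and IL7R at 0, 6 of 8 detected, NKG7 the most abundant at 40.7 CPM and a sum of 12.2 to 141 CPM over the libraries.

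TCF7 and LEF1, the naive and memory pair, both had their highest mean of the T and NK-like subtypes in 1 cluster. The cluster led by IGFBP2 and SOX4 had TCF7 at 269, 343 and 348 CPM in the controls and at 467, 288 and 383 in the asthma libraries. These values overlapped between the groups. The cluster led by ITM2C and ZNF683 followed at a mean of 314 CPM of TCF7, and CD4 T-like cells had 137 ± 21.4, below that cluster in each of the 5 libraries in which both could be measured. NK-like cells had 27.4 ± 15.2 and regulatory T-like cells 10.9 ± 13.0 CPM, both low. LEF1 was at 85.2 ± 49.0 CPM in the IGFBP2 and SOX4 cluster and 77.1 ± 19.1 in CD4 T-like cells, with CD4 the higher in 4 of 6 libraries, and at most 33.6 CPM in any other T and NK-like subtype. LEF1 UMIs in percent of LEF1 plus TCF7 were 35.8% ± 4.34 in CD4 T-like cells and 19.0% ± 8.47 in the IGFBP2 and SOX4 cluster (n = 6 each). In T and NK-like cells, 16.3% of the 1672 with a TCF7 UMI also had a LEF1 UMI, against 4.76% of all. Within subtypes these shares were 22.7% and 21.2% in the IGFBP2 and SOX4 cluster, 31.9% and 20.04% in CD4 T-like cells, 17.2% and 2.69% in proliferating cells and 3.52% and 0.665% in cytotoxic CD8 T-like cells. They were 13.3% and 12.8% in the ITM2C and ZNF683 cluster and 6.04% and 3.91% in the JAML and BLK cluster. NK-like cells had 2.45% and 0.772%, and GZMK CD8 T-like cells 1.53% and 0.968%. The HEXIM1 and COL11A1 cluster had 0.0% and 0.551%. Regulatory T-like cells had 33.3% and 5.63%, from 3 cells with TCF7.

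Both WNT factors were measured in stromal cells too. LEF1 was at 152 and 58.4 CPM in asthma replicates 10 and 11 in the cluster led by COX4I2 and POSTN, in which the pericyte marker PDGFRB was at 2955 CPM, and the other libraries held at most 7 such cells. In the cluster led by ACTA2 and SOSTDC1 LEF1 was at 30.1, 69.1 and 38.2 CPM in the controls and at 58.0, 23.5 and 26.3 in the asthma libraries, of which 2 values rest on 2 UMIs and 1 UMI. In the ACE and HPGD cluster LEF1 had 2 UMIs in 2 cells, and TCF7 was at 86.7, 66.0 and 48.4 CPM in the asthma libraries and at 0 UMIs in the 13 cells of control replicate 2. CD3E stayed at 2.93 CPM or less in these 3 clusters. Of the 8 T and NK markers 5, 8 and 6 were detected, with summed levels of 43.9, 56.5 and 335 CPM in the same order, and the last sum was mostly IL7R at 312 CPM.

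**Figure D4:**
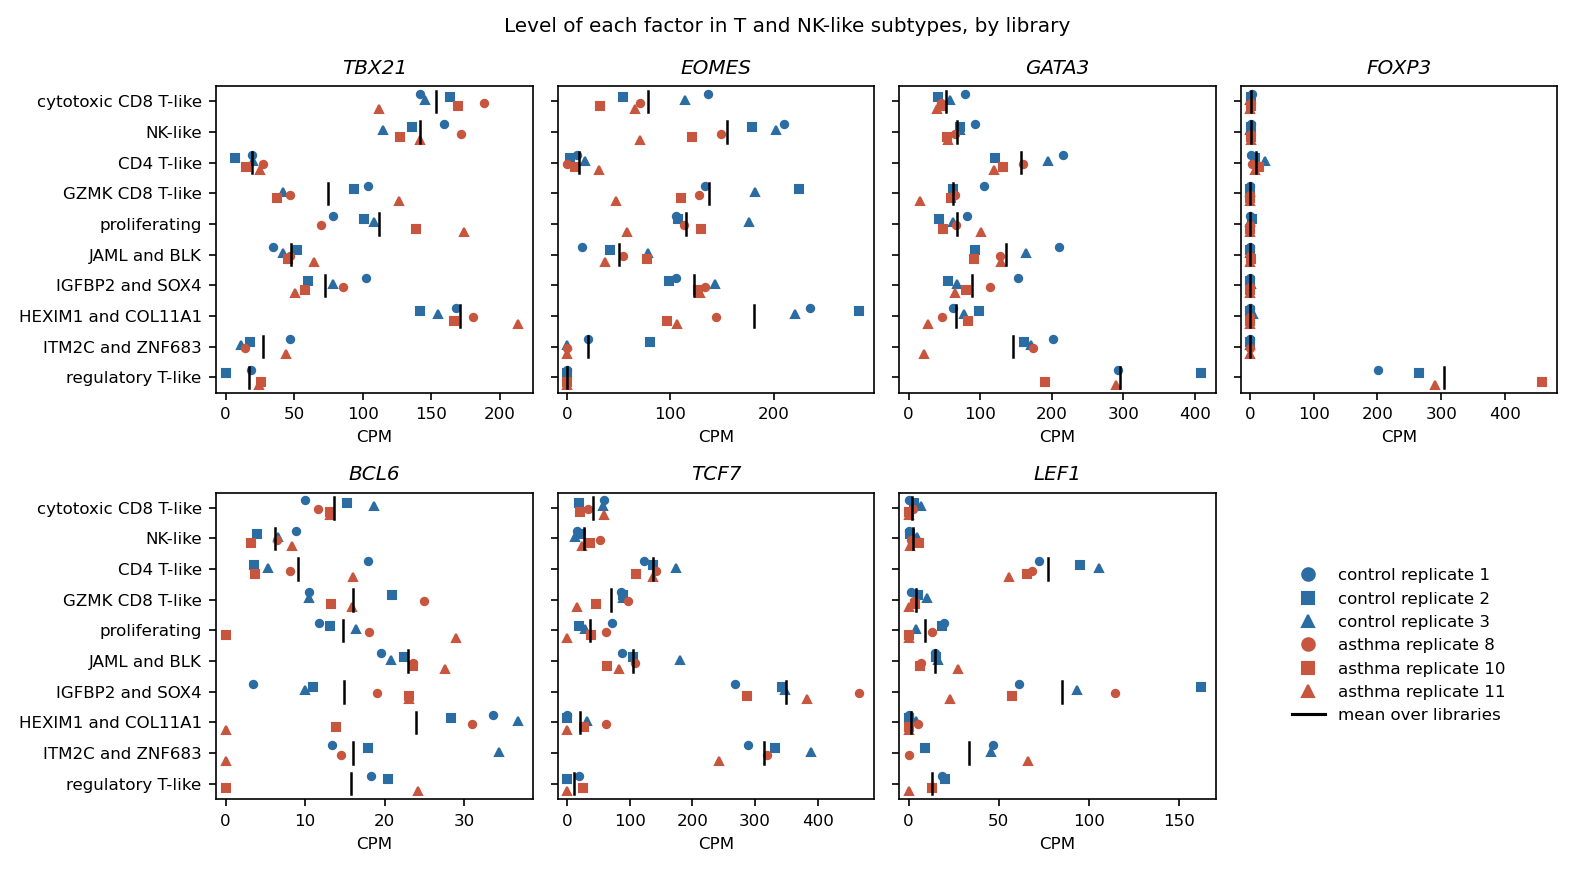
Each panel is 1 gene, the horizontal axis is its level in CPM (a separate linear scale per panel), and each point is 1 library with at least 10 cells of the T and NK-like subtype or cluster on the vertical axis (blue, control; red, asthma; black tick, mean). FOXP3 is near 0 outside the regulatory T-like cells, and the control and asthma points of most genes mix within a subtype.

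The orders of level were compared neighbour by neighbour with a two-sided exact sign-flip permutation test over libraries. None of the 63 neighbouring pairs of the 7 genes passed, and the smallest adjusted p was 0.606. With 6 libraries the smallest raw p is 0.03125, and it was reached by GATA3 in the JAML and BLK cluster over the IGFBP2 and SOX4 cluster (a mean difference of 46.9 ± 32.8 CPM) and by TCF7 in the JAML and BLK cluster over GZMK CD8 T-like cells (34.1 ± 36.4 CPM), each in 6 of 6 libraries. TBX21 in cytotoxic CD8 T-like and NK-like cells, which were 11.8 ± 28.7 CPM apart, and EOMES in NK-like and GZMK CD8 T-like cells, 17.6 ± 38.7 CPM apart, are neighbours whose difference was smaller than the spread between libraries.

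The genes whose level was most like that of a member were found over 156 sums per library and class, 57 of them from T and NK-like subtypes, by Pearson's r of log2(CPM + 10). These points share libraries and depth, so r is a description. For TBX21 they were PYHIN1 (r = 0.94), IKZF3 (0.93) and CD27 (0.90), and for EOMES the NK receptor genes KLRK1 (0.91) and KLRD1 (0.90) and the granule gene NKG7 (0.90). Within T and NK-like subtypes alone, r was 0.76 for PYHIN1, 0.71 for IKZF3 and 0.32 for CD27, and 0.69 to 0.78 for the 3 genes of EOMES. GATA3 was followed by GIMAP7 (0.85), SH2D2A (0.84) and ETS1 (0.84), with −0.38, 0.33 and 0.13 within T and NK-like subtypes. FOXP3 was followed by CGA (0.92), the immune checkpoint gene CTLA4 (0.83) and GIPC2 (0.79), with 0.87 to 0.95 within T and NK-like subtypes. These 3 genes are among the leading genes of the regulatory T-like cluster, and CTLA4 was a marker used to name it. Their r rests mainly on the few sums of that cluster and restates its leading genes. BCL6 was followed by the myeloid genes MEFV (0.72), HAL (0.68) and SLC31A2 (0.68), TCF7 by CTSW (0.81), PVRIG (0.77) and the T cell receptor subunit CD3E (0.77), and LEF1 by VSIG1 (0.58), TRIB2 (0.53) and CLDND1 (0.52). Within T and NK-like subtypes r was 0.10, 0.26 and 0.066 for the genes of BCL6, 0.62, 0.42 and 0.35 for those of TCF7 and 0.66, 0.094 and 0.46 for those of LEF1, in the same order.

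Asthma was compared with control, the comparison of the study, on UMIs summed per library and class with edgeR's quasi-likelihood test, adjusted by the Benjamini-Hochberg method over all genes tested in the class and called at an adjusted p under 0.05 with a log2 fold change over 0.25 in size. The 7 genes passed the filter on low counts in 59 pairs of gene and class over 21 of the 26 classes fitted, in 3 classes for FOXP3, 4 for LEF1 and 9 to 11 for the others. No pair was called. All genes tested gave calls of 0.0839% in all cells, 0.567% in the stromal cluster led by COL1A1 and DCN, 0.0158% in B-like cells and 0.015% in the cluster led by S100A8 and VCAN, and of 0.0% in the other classes in which a factor was tested. In the T and NK-like compartment 0 of 10445 genes were called (0.0%), and 718 had an unadjusted p under 0.05. Of the 59 pairs 15 had an unadjusted p under 0.05, as did 6.24% of all genes tested over the same 21 classes, from 3.44% in the CSF3R granulocyte cluster to 12.9% in all cells. DESeq2 called 3, 2 of them in all cells, where it called 4.52% of all genes, and 1 in the compartment, where it called 0.747%. With no filter on low counts edgeR called 5 of 171 pairs, beside 0.354% of all genes in the compartment, 0.433% in cytotoxic CD8 T-like cells, 0.909% in NK-like cells and 1.96% in the COL1A1 and DCN cluster. The libraries of the groups did not overlap in 13 pairs, 10 with every asthma library lower and 3 with every asthma library higher. In the classes that held these pairs, between 2.86% and 15.5% of all genes tested had every asthma library lower and between 5.71% and 15.5% every one higher, the highest shares being those of a class with 2 libraries against 2. In the compartment the shares were 4.58% and 5.93%. The pairs are not independent, since the compartment and all cells sum the cells of the subtypes.

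EOMES had a lower mean level in asthma than in control in NK-like, GZMK CD8 T-like and cytotoxic CD8 T-like cells. With the filter on low counts, edgeR called it in none of them. Summed over the T and NK-like compartment EOMES was at 134, 84.1 and 146 CPM in the controls and at 77.3, 66.3 and 51.3 in the asthma libraries. No asthma library reached a control library, and the nearest values were 84.1 and 77.3. The log2 fold change was −0.92 ± 0.22 (SE, 3 against 3; edgeR, adjusted p = 0.398), and DESeq2 called it (log2 fold change −0.92, adjusted p = 0.0147). A sum over cell types cannot tell fewer cells of a type from less RNA per cell. Within NK-like cells EOMES was at 210.2, 179.5 and 202 CPM in the controls and 149, 121 and 70.7 in the asthma libraries, again without overlap, at −0.85 ± 0.23 on the log2 scale (edgeR, adjusted p = 0.707). In these cells 4.66% of the 7375 genes tested had every asthma library lower.

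The NK-like cells of the 6 libraries lay in different clusters. Control replicate 1 gave 768 of its 816 NK-like cells to a cluster in which EOMES was at 216 CPM, and asthma replicate 11 gave 316 of its 322 to another, at 68.9 CPM, which had the lung epithelial gene SFTPC and the heat shock gene HSPA6 among its leading genes. In the cluster that the other 4 libraries shared, EOMES was at 180.4 and 203 CPM in control replicates 2 and 3 and at 149.8 and 119 in asthma replicates 8 and 10, while the 48 cells of control replicate 1 there had 102. With control replicate 1 included, the groups overlapped in the shared cluster. Animal and group cannot be told apart in the 2 clusters of single libraries, and the part of the clusters in the EOMES values was not tested.

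In GZMK CD8 T-like cells EOMES was at 134, 224 and 182 CPM in the controls and 128, 111 and 47.5 in the asthma libraries, the last from 3 UMIs, at −0.65 ± 0.26 (edgeR, adjusted p = 0.669). These values did not overlap, where 6.14% of genes tested had every asthma library lower. The same held in the cluster led by HEXIM1 and COL11A1, with 235, 283 and 220.4 CPM in the controls and 144, 97.1 and 107 in the asthma libraries, at −0.93 ± 0.30 (edgeR, adjusted p = 0.997), beside 5.71% of genes. The part of the small nuclear RNAs that lead this cluster was not tested. In cytotoxic CD8 T-like cells the values were 137, 54.3 and 114 CPM in the controls and 70.2, 31.7 and 65.9 in the asthma libraries, and the log2 fold change was −0.91 ± 0.35 (edgeR, adjusted p = 0.999982; −1.39 to −0.59 with a library left out). Here asthma replicates 8 and 11 lay above control replicate 2, so the groups overlapped. The cells of this subtype also lay in different clusters, since control replicate 2 gave 462 of its 746 to 1 cluster, control replicate 3 gave 221 of 512 to another, and asthma replicates 8 and 10 gave 565 of 1279 and 420 of 883 to yet another. The part of these clusters in the EOMES and TCF7 values was not tested. In the 2 unnamed clusters led by JAML and BLK and by IGFBP2 and SOX4 EOMES did not share this direction, at 0.29 ± 0.41 (−0.12 to 1.06 with a library left out) and 0.14 ± 0.27 (0.012 to 0.36, and −0.06 with no filter on low counts). TBX21 was at −0.01 ± 0.21 in the compartment (edgeR, adjusted p = 0.998) and at 0.06 ± 0.17 in NK-like cells, with control values of 159, 136 and 114 CPM and asthma values of 171, 127 and 141. It was at −0.83 ± 0.39 in GZMK CD8 T-like cells (edgeR, adjusted p = 0.763; −1.08 to −0.41 with a library left out), at −0.53 ± 0.40 in all cells (−0.89 to −0.19) and at 0.45 ± 0.37 in CD4 T-like cells (0.13 to 0.82), with overlapping libraries in each.

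**Figure D5:**
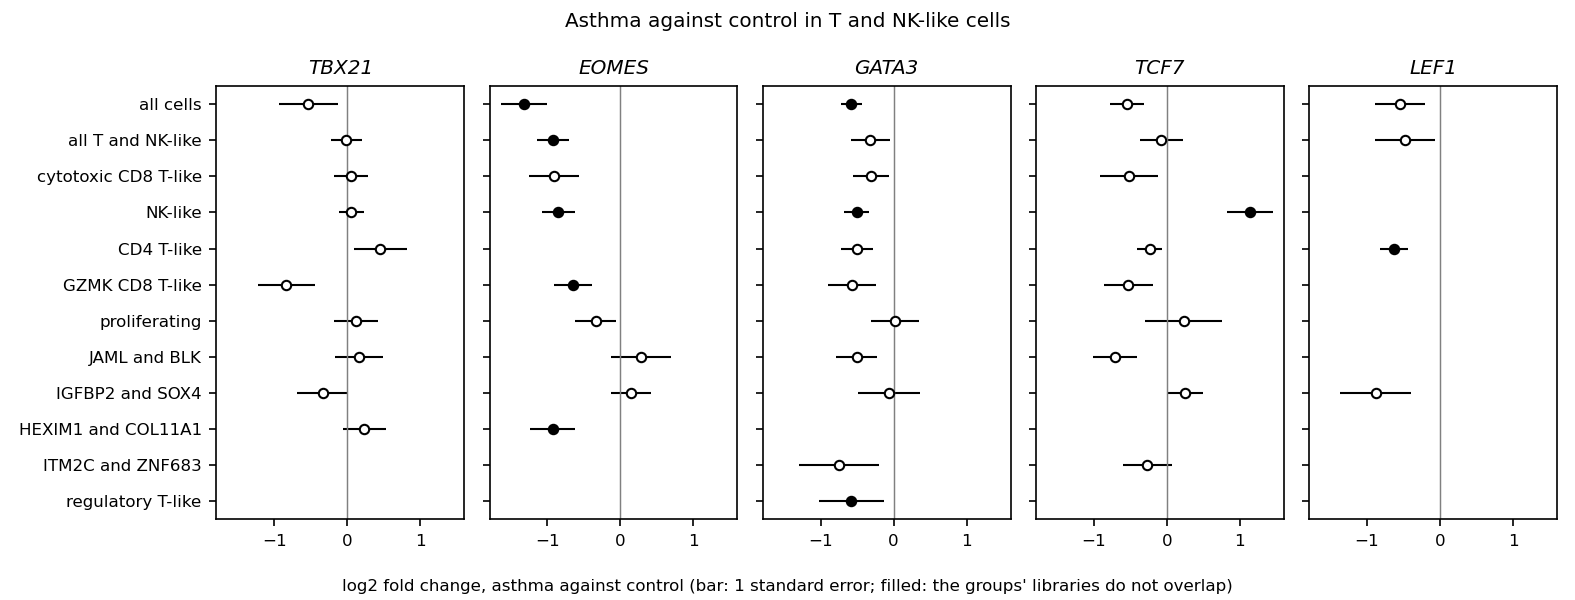
Points give the log2 fold change of asthma against control (horizontal axis) for 5 genes in all cells, the T and NK-like compartment and its subtypes and clusters (vertical axis), with bars of 1 standard error and filled points where the libraries of the groups do not overlap. EOMES lies at −0.92 in the compartment and −0.85 in NK-like cells with filled points, TBX21 lies at −0.01 in the compartment, −0.83 in GZMK CD8 T-like cells and 0.45 in CD4 T-like cells with open points, and TCF7 lies at 1.13 in NK-like cells against −0.53 in GZMK CD8 T-like cells.

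TCF7 had a log2 fold change above 0 in NK-like cells and below 0 in GZMK CD8 T-like cells, neither of them called. In NK-like cells it was at 15.4, 22.4 and 12.5 CPM in the controls and at 53.3, 36.5 and 24.1 in the asthma libraries. Every asthma library was higher, as for 5.71% of the genes tested, and the nearest values, 22.4 and 24.1, were close. The log2 fold change was 1.13 ± 0.31 (edgeR, adjusted p = 0.707). In GZMK CD8 T-like cells TCF7 was at 86.5, 88.7 and 88.7 CPM in the controls and 96.6, 46.9 and 15.8 in the asthma libraries, the last from 1 UMI, at −0.53 ± 0.33 (−1.01 without asthma replicate 8 and −0.18 without asthma replicate 10). The difference between these effects was tested in an edgeR fit with the library as a block, over 7035 genes, and was 1.89 ± 0.37 on the log2 scale (adjusted p = 0.0214). It was 1 of 3 genes called in that fit (0.0426%), beside 0.0594%, 0.0378% and 0.0258% in the fits of NK-like against cytotoxic CD8 T-like, NK-like against CD4 T-like and cytotoxic CD8 T-like against CD4 T-like cells. It was no longer called without control replicate 1 (adjusted p = 0.268), control replicate 3 (0.0669) or asthma replicate 10 (0.214), with log2 values of 1.77, 1.78 and 1.73. The same difference against cytotoxic CD8 T-like cells was 1.94 ± 0.48 and was not called (edgeR, adjusted p = 0.345), and against CD4 T-like cells it was 1.34 ± 0.30 (adjusted p = 0.208). The first was called without control replicate 2 (2.64, adjusted p = 1.70e-05, where 0.342% of genes were called) and with no filter on low counts (1.89, adjusted p = 2.03e-05, beside 0.113%). The second was called without asthma replicate 11 (1.69, adjusted p = 0.0260, beside 0.064%) and with no filter (1.30, adjusted p = 0.00115, beside 0.27%). For EOMES the asthma effect in NK-like minus CD4 T-like cells was −1.86 ± 0.70 and was not called (edgeR, adjusted p = 0.763), and it was called with no filter (−1.89, adjusted p = 0.000247, beside 0.27%) and turned to 0.91 (adjusted p = 0.952) without asthma replicate 11. Of the 23 such differences tested over the members and these 4 pairs of subtypes, no other was called in these fits, with a library left out or with no filter.

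GATA3 had a log2 fold change below 0 in several groups of cells, none of them called by edgeR and 1, all cells, called by DESeq2. In NK-like cells it was at 92.5, 72.1 and 72.5 CPM in the controls and 64.6, 53.2 and 54.9 in the asthma libraries, with no overlap, at −0.50 ± 0.17 (edgeR, adjusted p = 0.838). Over all cells it was at 28.0, 21.3 and 26.1 CPM in the controls and 20.02, 17.0 and 19.0 in the asthma libraries, at −0.58 ± 0.14 (edgeR, adjusted p = 0.213; DESeq2, adjusted p = 0.0280). In all cells 3.11% of 14306 genes had every asthma library lower. In CD4 T-like cells, where type 2 helper cells would lie, the log2 fold change of GATA3 was −0.50 ± 0.22 (edgeR, adjusted p = 0.705; −0.26 without control replicate 1) with overlapping libraries. Most such cells of asthma replicate 11 lay in the cluster with CD8A above CD4.

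LEF1 in CD4 T-like cells was at 72.1, 95.1 and 105 CPM in the controls and at 68.3, 65.9 and 55.7 in the asthma libraries. The asthma values lay below the controls, with 68.3 next to 72.1, and the log2 fold change was −0.63 ± 0.19 (edgeR, adjusted p = 0.506), where 2.86% of 5834 genes had every asthma library lower. Its paralogue TCF7 overlapped in these cells at −0.23 ± 0.17 (−0.31 to −0.15 with a library left out). Of the 513 CD4 T-like cells of asthma replicate 11, 480 lay in 1 cluster with the lung epithelial gene SFTPC among its leading genes, which held 4 to 28 cells of each other library, and its part in these values was not tested. In that cluster CD8A was at 192 CPM, above CD4 at 124 CPM. FOXP3 in regulatory T-like cells could be tested in 2 libraries against 2 and gave 0.72 ± 0.44 (edgeR, adjusted p = 0.971; 0.36 to 0.98 with a library left out), with 15.5% of genes having every asthma library higher in a design of that size and as many lower, GATA3 among the latter at −0.58 ± 0.45 (−0.85 to −0.22).

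BCL6 was tested mainly in myeloid and structural classes. In the cluster led by S100A8 and VCAN it was at 46.4, 49.0 and 41.1 CPM in the controls and 32.3, 34.2 and 28.7 in the asthma libraries, at −0.62 ± 0.22 (edgeR, adjusted p = 0.999). Those values did not overlap, as for the 4.18% of genes lower in every asthma library, and neither did those of the stromal cluster led by COL1A1 and DCN, where BCL6 was at 7.73, 5.20 and 20.7 CPM in the controls and 21.2, 41.5 and 47.9 in the asthma libraries. In that cluster 11.6% of genes were higher in every asthma library. The difference there was 1.40 ± 0.45 (edgeR, adjusted p = 0.248; 2.43 without control replicate 3 and 1.05 without control replicate 2), the values of control replicates 1 and 2 rest on 2 and 3 UMIs, and control replicate 3 lay next to asthma replicate 8. T and NK markers were at a summed 24.5 CPM in that cluster, with CD247 at 0. In the CSF3R granulocyte cluster BCL6 was at 0.27 ± 0.31, from 0.022 without control replicate 1 to 0.61 without control replicate 2.

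The genes of the pathways around the 7 factors were described from lists. None of their members was called by edgeR in the T and NK-like compartment or in a subtype of it. In the compartment 5 of the 58 list genes tested had an unadjusted p under 0.05 (8.62%, beside 6.87% of all genes), and DESeq2 called 1, CXCR3, beside 0.747% of all genes. In the type 1 and cytotoxic list, the 12 genes tested in the compartment had a median log2 fold change of −0.08 against 0.0044 over all genes tested, and its most abundant members, the protease GZMB, the chemokine CCL5 and NKG7, were at −0.05, −0.11 and −0.02. CXCR3, a chemokine receptor that T-bet induces, was at 37.0, 33.2 and 33.6 CPM in the controls and 56.9, 68.3 and 90.2 in the asthma libraries without overlap, at 1.03 ± 0.20 (edgeR, adjusted p = 0.390). It was named after its values were seen. CD4 T-like cells had a higher median for this list, 0.52 over 10 genes, with 4 of them higher in every asthma library, as were 10.8% of all genes tested in these cells. Of the 513 CD4 T-like cells of asthma replicate 11, 480 lay in 1 cluster. The CD8 T cell marker CD8A was at 192 CPM there, above CD4 at 124 CPM. In the other CD4 T-like clusters CD8A was at 42.6 to 82.8 CPM, below CD4. The part of that cluster in the median of the list was not tested.

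The type 2 list was at the limit of detection, since 9 of its 10 genes are listed and 4 could be tested in the compartment, with a median of −0.11. Its most abundant genes in T and NK-like cells were the receptor IL9R at 3.06 CPM, the chemokine receptor CCR4 at 2.002 and the cytokine IL4 at 1.68. The cytokine IL13, named after its values were seen, was at 2.93, 0.415 and 0.126 CPM in the controls and 3.01, 0 and 0.263 in the asthma libraries, so that 1 library of each group held most of it. For the regulatory list 10 of 11 genes were tested, with a median of 0.10, and TIGIT, TNFRSF18 and IKZF2, the most abundant, were at 0.09, 0.12 and −0.42. In the follicular list, SH2D1A, TOX2 and PDCD1 were at −0.06, −0.84 and 0.28 among 6 genes tested, with a median of −0.07. In the naive and memory list, IL7R, NOSIP and ID3 were at 0.28, −0.07 and −0.12 among 7, with a median of 0.02. Of 22 other lymphocyte lineage factors listed, 19 were tested, with a median of 0.09, and the most abundant, ID2, ETS1 and IKZF1, were at 0.15, −0.13 and 0.10.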

How the data were processed

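Count tables of 6 libraries were analysed, 3 control and 3 asthma. The authors deposited whole-number UMI counts per gene and barcode from Cell Ranger with the macFas6 genome; the submitters' processing notes name version 2.1.1, the methods and a file header name others. Cells were required to show more than 500 and fewer than 5000 genes, a minimum of 500 UMIs and no more than 25% of UMIs from mitochondrial genes, which kept 24235. Of these, 1616 with markers of a second class were set aside, and 793 with high doublet scores were kept. Cells were clustered with scanpy 1.11.5 without the 7 genes (2000 variable genes, 10 principal components, Leiden resolution 0.8; T and NK-like cells 20 components and 1.2), and clusters were named from markers. Total UMIs per library were 29014556 to 41489879. The depth limits rare genes, and intervals and floors cover counting error only.

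UMIs were summed per library and class (at least 10 cells) and tested with edgeR 4.0.16 (quasi-likelihood, TMM, filterByExpr), with DESeq2 1.42.0 as an alternative. On simulated counts for the NK-like comparison (7375 genes), the test called 34.5% of genes with a true log2 change of 1 and 88.5% of those with 2. The differences of the asthma effect between subtypes were tested after the data had been seen, in 4 fits with 23 tests of the 7 genes. Levels of neighbouring subtypes and subtype shares were compared by exact permutation. The 3 most abundant genes of each pathway list, any list gene called, and the 3 genes most correlated with each factor (log2(CPM + 10), at least 100 UMIs) were named. The 7 genes and the lists were chosen with earlier results of these data known. Sequences of the genes were not used here. A further gene among the leading genes of some clusters is not reported here.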

Additional observations from a re-analysis of the deposited data

Results flagged for a closer look

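The asthma effect on TCF7 differed between NK-like and GZMK CD8 T-like cells by 1.89 ± 0.37 on the log2 scale (edgeR quasi-likelihood test of the difference, Benjamini-Hochberg adjusted p = 0.0214). TCF7 was at 1.13 ± 0.31 in NK-like cells, which was not called (edgeR, adjusted p = 0.707), with all 3 asthma libraries above every control, as for 5.71% of genes in these cells, and it was at −0.53 ± 0.33 in GZMK CD8 T-like cells, where asthma replicate 11 had 1 TCF7 UMI in 20 cells and the value ran from −1.01 to −0.18 with a library left out. The test was 1 of 23 chosen after the data had been seen. Leaving out each library in turn moved the difference between 1.73 and 2.18 and the adjusted p between 0.00368 and 0.268, and without any filter on low counts it was 1.85 (adjusted p = 0.00327). NK-like cells came from different clusters in control replicate 1, in asthma replicate 11 and in the other 4 libraries, and the part of these clusters in the difference was not tested.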

How the results depend on the processing

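No paired analysis was possible because the groups were of different monkeys (replicates 1, 2 and 3 against 8, 10 and 11). Of the 59 pairs of gene and class, 0 were called in the edgeR fit, 3 by DESeq2 (EOMES in all cells and in T and NK-like cells, GATA3 in all cells) and, of the 171 pairs tested with no filter on low counts, 5 (EOMES in T and NK-like, NK-like and cytotoxic CD8 T-like cells, TCF7 in NK-like cells, BCL6 in the COL1A1 and DCN cluster). Leaving out each library gave 0 calls and 10 to 18 pairs at an unadjusted p under 0.05, against 15. Over the compartment and its subtypes, pathway list genes called went from 0 to 1 with DESeq2 (0.285% of 351 pairs of gene and class, beside 0.165% of all pairs) and to 15 with no filter (2.14% of 701, beside 0.34%). With a library left out they were between 0 and 4, 1 without control replicate 1 (0.287%, beside 0.0137%) and 4 without asthma replicate 11 (1.04%, beside 0.0404%). The named subtype with the highest mean turned from cytotoxic CD8 T-like to NK-like for TBX21 at resolution 2.0 and from regulatory to CD4 T-like for GATA3 without the further split of the CD4 and regulatory cluster. For BCL6 it was GZMK CD8 T-like and turned with a mitochondrial maximum of 10% and without control replicate 2, asthma replicate 8 or asthma replicate 10.

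EOMES stayed lower in asthma with each library left out, from −1.13 to −0.80 in T and NK-like and from −1.03 to −0.59 in NK-like cells, and TCF7 in NK-like cells stayed between 0.90 and 1.40. Small log2 fold changes turned sign. With a mitochondrial maximum of 10%, BCL6 in T and NK-like cells came to 0.24, GATA3 and TBX21 in proliferating cells to −0.26 and −0.16, and GATA3 in the IGFBP2 and SOX4 cluster to 0.072. With doublets left out, BCL6 in T and NK-like cells came to 0.0084, TBX21 in cytotoxic CD8 T-like cells to −0.0054 and GATA3 in the IGFBP2 and SOX4 cluster to 8.97e-05. TCF7 in proliferating cells came to −0.00081 with DESeq2, and with no filter GATA3 there came to −0.069 and EOMES in the IGFBP2 and SOX4 cluster to −0.056.

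Ranges over left-out libraries that crossed 0 were, in T and NK-like cells, −0.11 to 0.039 for BCL6, −0.49 to 0.16 for TCF7, −0.52 to 0.035 for GATA3 and −0.21 to 0.20 for TBX21. For TBX21 they were −0.077 to 0.21 in cytotoxic CD8 T-like, −0.066 to 0.18 in NK-like, −0.13 to 0.57 in proliferating and −0.25 to 0.25 in B-like cells. In proliferating cells they were −0.46 to 0.81 for TCF7 and −0.16 to 0.24 for GATA3. They were −0.072 to 0.73 for FOXP3 in all cells, −0.12 to 1.06 for EOMES in the JAML and BLK cluster and −0.33 to 0.41 for GATA3 in the IGFBP2 and SOX4 cluster. For BCL6 they were −0.14 to 0.19 in the FABP4 and CHIT1 macrophages, −0.38 to 0.13 in the SFTPC and SCGB3A2 epithelial cluster and −0.043 to 0.74 in dendritic-like cells. The TCF7 effect in cytotoxic CD8 T-like minus CD4 T-like cells ran from −0.66 to 0.14.

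Subtype shares, asthma minus control in percentage points, ran from −2.03 to 28.5 for cytotoxic CD8 T-like, −3.31 to 4.10 for GZMK CD8 T-like and −4.82 to 15.7 for CD4 T-like cells with a library left out. The regulatory T-like difference was 0.27 and −0.34 without the further split of the CD4 and regulatory cluster. The cause of these changes was not tested.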
